A study of Mus musculus with 18 samples.

Results

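The genes of oxidative phosphorylation were followed in whole-thickness ileum of mice that overexpress *Ppara* in the intestinal epithelium. The members were all protein-coding genes whose symbol begins with Nduf, Sdh, Uqcr, Cox followed by a digit, Atp5 or mt-. This rule used names and biotype alone, and it found 122 gene IDs among the 55487 in the count files. Of these, 109 are encoded in the nucleus and 13 on the mitochondrial chromosome, and 99 nuclear and all 13 mitochondrially encoded members were abundant enough to be tested. The symbols also take in 21 assembly factors, which help to build a complex without staying in it.

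The series holds 18 libraries, 1 per mouse, with 6 controls, 6 heterozygous and 6 homozygous IEC-*Ppara* mice. IEC-*Ppara* mice carry on 1 or both alleles of *Col1a1* a *CAG-Ppara,-EGFP* transgene that Cre inverts into its active orientation, together with *Villin-CreERT2*, which is active in epithelium of the intestine. Controls were littermates without *Villin-CreERT2*, and the sources used here do not give the transgene dose of each control. All mice were on the C57BL6/J background, ate chow, were 8 to 13 weeks old and received tamoxifen at 100 mg/kg on 3 days, with ileum taken 2 weeks after the last dose, so tamoxifen was shared by all groups while Cre was not. Females numbered 3 among controls and 2 in each IEC-*Ppara* group.

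Oxidative phosphorylation makes ATP in the inner mitochondrial membrane. Complexes I and II pass electrons from NADH and succinate to coenzyme Q, complex III hands them to cytochrome c, complex IV reduces oxygen, and the proton gradient built by complexes I, III and IV drives ATP synthase, complex V. The subunits come from both genomes, except those of complex II, which are all nuclear, and absorptive epithelium is rich in mitochondria. PPARα, the receptor encoded by *Ppara*, is known for inducing genes of fatty acid oxidation, a process that feeds electrons into this chain.

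Counts summed to between 38528522 and 50376371 per library. The levels below are CPM, each count as a share of its library total and multiplied by 1000000. *Ppara* ranged from 25.8 to 47.4 CPM among controls, from 107 to 196 among heterozygotes and from 184 to 279 among homozygotes, with no overlap between controls and the others. Each library mixes epithelium with other layers, and fewer cells of a type cannot be told apart from less RNA per cell. The labelled tissue held its defining markers, with 12 absorptive enterocyte markers summing to between 21492 and 31437 CPM per library. Of the 11 tested absorptive markers 10 had estimates above 0 in heterozygous mice (median log2 fold change 0.10, 3 higher at an unadjusted p under 0.05, 0 called) and 6 in homozygous mice (median 0.07, 2 higher at that p, 1 called at an adjusted p of 0.00122). This list includes *Fabp2*, which the authors report among lipid uptake genes raised in IEC-*Ppara* ileum. The part of such genes in these estimates was not tested. The 7 markers of ileal enterocytes summed to 5094 to 7901 CPM in controls, 5434 to 6909 in heterozygous and 4037 to 6760 in homozygous libraries, with medians of 6520, 6554 and 4391. In homozygous against control mice 5 of these 7 had estimates below 0 (median log2 fold change -0.21), 2 were lower at an unadjusted p under 0.05, and none passed the adjusted threshold (lowest adjusted p 0.401). Other cell types also moved in homozygous against control mice: all 12 B cell markers had estimates below 0 (median -2.79, 11 lower at an unadjusted p under 0.05). Control 2 and control 3 carry much of this fall, since the summed B cell markers had medians of 35.8, 32.9 and 32.8 CPM in control, heterozygous and homozygous libraries but reached 669 CPM among controls. Estimates below 0 were also found for all 5 tested T cell markers (median -0.81, 5 lower at that p). All 10 smooth muscle, all 10 fibroblast and all 6 neuron and glia markers had estimates above 0, with medians of 0.57, 0.35 and 0.61, and 0, 2 and 2 were higher at that p. Of the markers of these 5 lists 1, from neuron and glia, passed the adjusted threshold. In heterozygous mice the medians of these 5 lists were -1.37, -0.68, -0.18, -0.08 and 0.05. Apart from the fits with smooth muscle and B cell scores or without the libraries named next, the part of these shifts in the members' values was not tested. The 4 libraries with most B cell RNA were control 2, control 3, heterozygous 2 and homozygous 1, and control 6 and heterozygous 3 had the least smooth muscle RNA.

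The authors' methods state that only reads aligned to 1 place were counted, and some members share sequence with other genes. Chromosome 1 carries a row of annotated pseudogenes, chr1:24611535-24616197 in GRCm38, that copies part of the mitochondrial chromosome. Within it, *Gm10925* matched *mt-Atp6* at 678 of 678 aligned bases, and the copies of *mt-Co2*, *mt-Co3*, *mt-Nd3*, *mt-Nd4l* and part of *mt-Nd4* were identical as well. The copy of *mt-Co1*, *Gm29216*, differed at 1 of 483 bases. Both pairs follow over 60 bases in transcript direction, from GENCODE M21 transcripts, at MT:8236-8295 for *mt-Atp6* and MT:6390-6449 for *mt-Co1*; capitals mark the single substitution, A4T, counted from 1 at the first base shown.
mt-Atp6: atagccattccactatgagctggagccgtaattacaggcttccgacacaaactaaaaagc
Gm10925: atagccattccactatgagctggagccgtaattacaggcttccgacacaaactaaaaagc
mt-Co1: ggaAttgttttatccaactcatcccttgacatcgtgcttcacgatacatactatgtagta
Gm29216: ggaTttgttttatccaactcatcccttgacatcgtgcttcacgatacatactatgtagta

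Promoters were read because nuclear members varied together between libraries, as described further on. Whether the motifs bear any relation to that variation was not tested. RefSeq promoter windows of 300 bases, from 250 before to 50 after the start, matched 87 members. CCGGAAGT, an element of the ETS factor GABPA, was in 10.3% of the matched members, 4.31% of all 27025 genes with a window and 8.74% of the tested genes. GCGCATGCG, the core of an NRF1 element, was in 11.5% of the members against 1.95% of all genes and 3.89% of tested genes. AAGATGGCG, the core of a YY1 element, was in 10.3%, against 1.64% and 3.44%. TCAAGGTCA, an element of estrogen-related receptors, was in 2.30%, against 0.466% and 0.308%. Both strands were searched, and no motif contains another. The 9-letter cores of NRF1 and YY1 were chosen after first counts with longer forms were seen. A match is a description of letters and not a bound site. With the window of most CpG taken for each gene, the median count of CpG was 20 in members, 8 in all genes and 22 in tested genes.

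The following windows show 1 example of each motif found, and the window of *Cox7a1*, a muscle form, which has 7 CpG and none of the motifs. Common subunits can lack them as well, for example *Cox7b*, with 5 CpG and no motif. Build GRCm38.p6 was used, each sequence is written 5′ to 3′ on the strand of its gene, and capitals mark the motif or its reverse complement. *Cox6a1* (chr5:115348909-115349208, minus strand) carries the NRF1 motif, *Cox8a* (chr19:7217567-7217866, minus strand) carries the ETS motif at 2 places, *Ndufs7* (chr10:80249199-80249498, plus strand) the YY1 motif, *Sdhd* (chr9:50603800-50604099, minus strand) the estrogen-related receptor motif, and *Cox7a1* lies at chr7:30183921-30184220 on the plus strand.
Cox6a1: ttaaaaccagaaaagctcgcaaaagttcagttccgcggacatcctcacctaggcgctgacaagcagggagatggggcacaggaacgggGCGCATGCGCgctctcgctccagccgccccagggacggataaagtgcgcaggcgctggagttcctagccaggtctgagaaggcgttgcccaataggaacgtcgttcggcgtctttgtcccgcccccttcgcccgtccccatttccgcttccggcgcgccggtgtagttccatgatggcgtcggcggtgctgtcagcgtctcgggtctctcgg
Cox8a: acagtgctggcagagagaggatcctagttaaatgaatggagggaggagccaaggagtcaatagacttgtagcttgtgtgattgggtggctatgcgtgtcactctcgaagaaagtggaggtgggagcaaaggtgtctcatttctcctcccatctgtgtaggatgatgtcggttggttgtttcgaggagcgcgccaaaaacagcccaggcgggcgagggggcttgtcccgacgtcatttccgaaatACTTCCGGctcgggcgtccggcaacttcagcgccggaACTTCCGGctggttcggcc
Ndufs7: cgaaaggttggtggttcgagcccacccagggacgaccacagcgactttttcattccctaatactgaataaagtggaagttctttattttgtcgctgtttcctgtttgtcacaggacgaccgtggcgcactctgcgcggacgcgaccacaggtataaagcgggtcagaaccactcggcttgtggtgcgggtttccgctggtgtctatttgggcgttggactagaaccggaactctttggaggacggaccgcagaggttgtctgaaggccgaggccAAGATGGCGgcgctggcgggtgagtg
Sdhd: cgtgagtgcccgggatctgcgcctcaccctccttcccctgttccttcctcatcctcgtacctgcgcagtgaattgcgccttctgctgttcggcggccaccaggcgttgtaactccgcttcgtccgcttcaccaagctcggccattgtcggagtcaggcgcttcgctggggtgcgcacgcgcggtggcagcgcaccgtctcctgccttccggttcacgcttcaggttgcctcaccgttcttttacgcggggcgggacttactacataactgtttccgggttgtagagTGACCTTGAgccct
Cox7a1: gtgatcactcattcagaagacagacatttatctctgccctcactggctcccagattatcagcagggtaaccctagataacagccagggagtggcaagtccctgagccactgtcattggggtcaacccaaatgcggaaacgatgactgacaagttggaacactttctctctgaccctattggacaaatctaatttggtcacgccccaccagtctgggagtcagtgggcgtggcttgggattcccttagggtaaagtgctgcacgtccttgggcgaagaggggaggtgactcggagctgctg

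The members together took a similar part of the transcriptome in each genotype. The mitochondrially encoded members held 2.26%, 2.49% and 2.84% of counts at the lowest, median and highest control, 2.27%, 2.54% and 2.90% in heterozygous and 2.31%, 2.55% and 2.87% in homozygous libraries. Group means were 2.52% ± 0.232 (SD, n = 6), 2.59% ± 0.229 and 2.61% ± 0.209. The groups overlapped over nearly their whole range. The nuclear members held 1.08% to 1.28% of counts in controls with a mean of 1.16% ± 0.0710, 1.04% to 1.24% in heterozygous with 1.16% ± 0.0950, and 1.07% to 1.26% in homozygous libraries with 1.14% ± 0.0903. The differences between these means were smaller than the SD within any group. The ratio of mitochondrially encoded to nuclear counts averaged 2.17 ± 0.195 in controls, 2.25 ± 0.275 in heterozygous and 2.31 ± 0.277 in homozygous libraries, again with overlapping ranges.

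**Figure D1:**
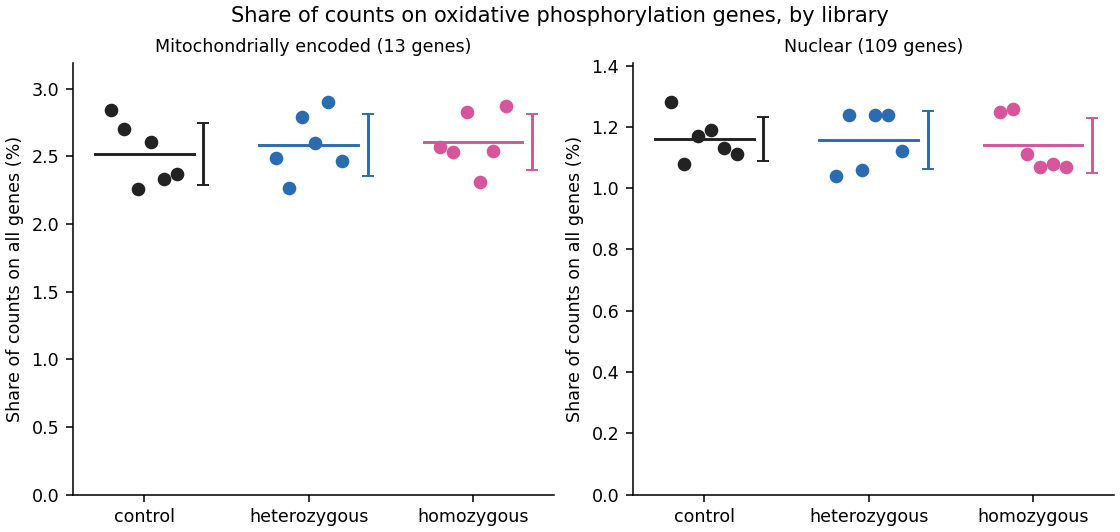
Share of all counts (%, vertical axis) on the 13 mitochondrially encoded and the 109 nuclear members, with 1 point per library, a line at the mean of each genotype and a bar of ± 1 SD (n = 6). The 3 genotypes overlap in both panels, at 2.26% to 2.90% and 1.04% to 1.28%.

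Libraries of 1 genotype differed more than genotypes did, and nuclear members moved as a block. In control 1, 93 of 99 tested nuclear members were above their own median over the 18 libraries, while in heterozygous 1 only 2 of 99 were. Heterozygous 4 had 93 above and homozygous 1 had 92, against 10 in heterozygous 3 and 9 in homozygous 6. Each genotype therefore held libraries at both ends. The same count over all 12645 tested genes was 51.1% in control 1, 41.3% in heterozygous 1 and 45.7% in homozygous 6, nearer to the middle. Over the 18 libraries it ran from 31.9% in heterozygous 5 to 68.1% in control 4, where 90 of 99 nuclear members were above. Mitochondrially encoded members did not always follow the nuclear ones. All 13 were above their median in control 1 and 2 of 13 in heterozygous 1, as with the nuclear members there. However, homozygous 3 had all 13 above with 44 of 99 nuclear members, and control 3 had 0 of 13 with 61 of 99. The relation between both sets was not tested. The mean log2 CPM of the tested nuclear members was highest, at 6.07, in homozygous 1 and lowest, at 5.71, in heterozygous 1. The mean of the small subunit of the mitochondrial ribosome was also highest in homozygous 1, at 4.43, and lowest in heterozygous 1, at 4.07. The mean over the 686 other tested genes with a counted length of at most 1500 bases ranked 2nd and 17th of 18 in these libraries, but 9th in control 1 and 13th in heterozygous 5, where 83 of 99 nuclear members were above their median. In heterozygous 4 the nuclear mean ranked 2nd and the mean of these other genes 1st, and in heterozygous 3 17th and 16th. The ranks were 12th and 6th in control 2 and 13th and 6th in homozygous 4. The nuclear members are short, with a median counted length of 1789 bases against 4570 over all tested genes. The part of transcript length in these swings was not tested.

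**Figure D2:**
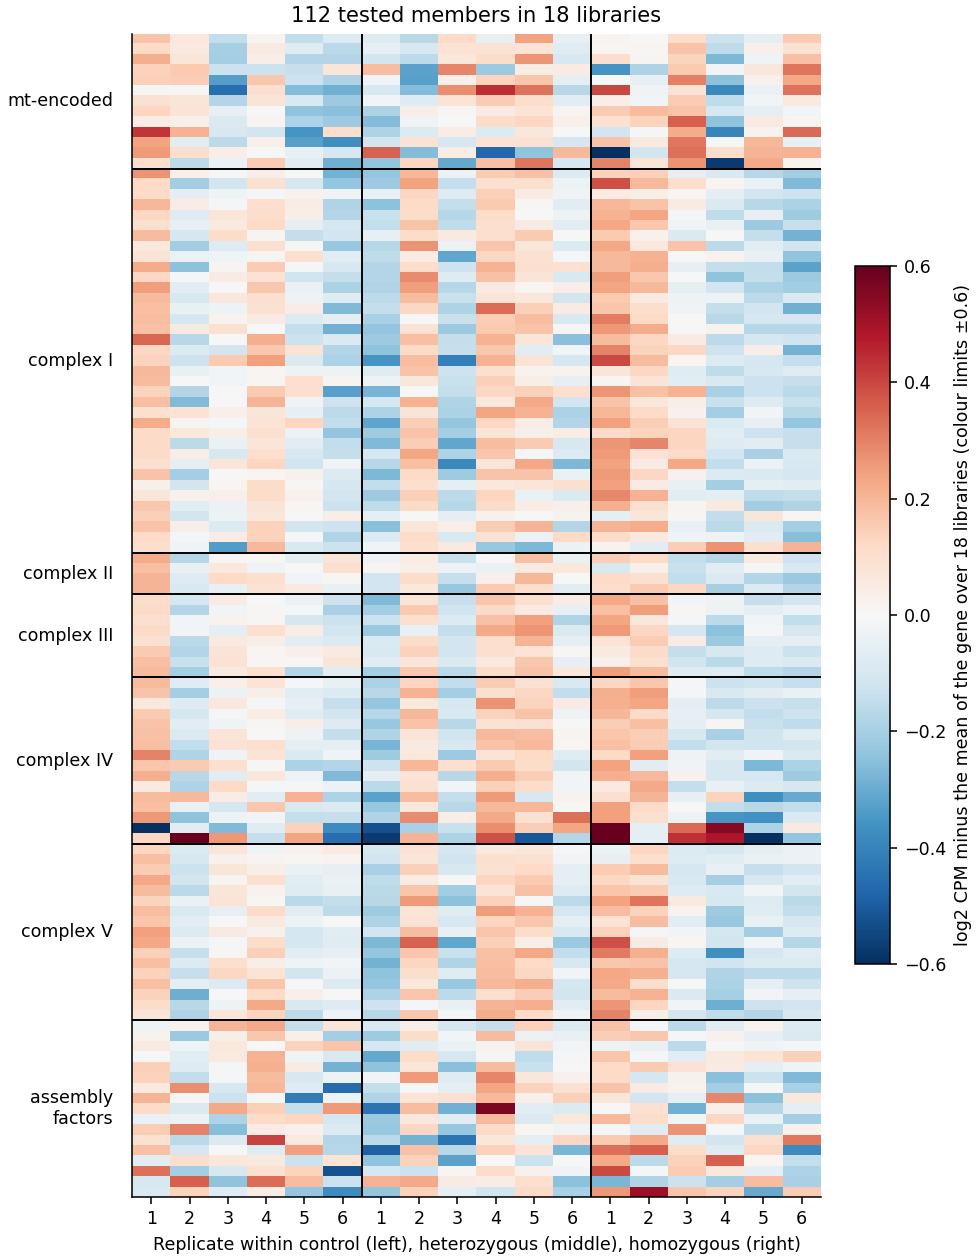
Level of each of the 112 tested members (rows, grouped by complex) in each of the 18 libraries (columns, by genotype and replicate), as log2 CPM minus the mean of that gene over all libraries, with colours limited at ±0.6. Columns such as control 1 and homozygous 1 are red and heterozygous 1 blue through all nuclear complexes, within every genotype.

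The spread of single members among controls was small. The coefficient of variation of CPM over the 6 controls had a median of 8.66% for nuclear members and 10.9% for mitochondrially encoded ones, against 11.8% over all tested genes. It was highest for *Ndufa4l2* (28.8%), a form of *Ndufa4* known from hypoxia. Next came the assembly factor *Ndufaf2* at 20%, *mt-Atp8* at 19.3%, *Cox6b2* at 17.9% and the assembly factors *Cox17* at 17.8% and *Ndufaf1* at 17.4%.

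Levels between genes were compared per length, as the FPKM the authors deposited. Among nuclear subunits, complex III had the highest median, 105 FPKM over 8 genes, followed by complex II with 85.8 over 4, complex IV with 84.7 over 16, complex V with 44.7 over 17 and complex I with 38.7 over 37. Assembly factors were low, with a median of 4.49 FPKM over 17 genes, from *Cox16* at 0.801 ± 0.128 (SD, n = 18) to *Ndufaf8* at 25 ± 2.15. The highest nuclear member was *Cox8a*, the small subunit VIII of complex IV, at 435 ± 37.1 FPKM. It was followed by *Cox6a1* at 382 ± 39.5 and by the F1 subunits *Atp5a1* at 370 ± 20.8 and *Atp5b* at 317 ± 18.7. Of these neighbours in the order only *Cox6a1* and *Atp5a1* lay within 1 SD of each other. In complex I the range ran from *Ndufb2*, an accessory subunit, at 1.26 ± 0.142 FPKM to *Ndufb11* at 97.5 ± 10.7. In complex II it ran from *Sdhc*, a membrane anchor, at 40.5 ± 3.73 to *Sdhd*, the other anchor, at 107 ± 8.96. In complex III *Uqcrq* was lowest at 68.3 ± 7.56 and *Uqcr11* highest at 148 ± 13.5. In complex V *Atp5l*, of the membrane part, was lowest at 9.09 ± 0.950. Some of the low values stand beside long gene models: FPKM here divides by the summed exon length of all transcripts, which is 5628 bases for *Ndufb2* and 6443 for *Atp5l*, so the level per mature transcript was not tested.

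Mitochondrially encoded members reached higher levels. The core subunit of complex IV, *mt-Co1*, was highest at 6695 ± 572 FPKM (SD, n = 18), followed by *mt-Cytb*, the cytochrome b of complex III, at 4766 ± 347 and by *mt-Nd1* of complex I at 3041 ± 332. Next came *mt-Nd5* at 1566 ± 213, *mt-Nd2* at 1440 ± 183, *mt-Nd6* at 1398 ± 267 and *mt-Nd4* at 1158 ± 87.5, of which *mt-Nd5*, *mt-Nd2* and *mt-Nd6* lay within 1 SD of each other. The others were far lower, with *mt-Co2* at 196 ± 17.5, *mt-Atp6* at 135 ± 14.5, *mt-Atp8* at 88.0 ± 13.2, *mt-Co3* at 85.6 ± 10.6, *mt-Nd4l* at 71.6 ± 12.3 and *mt-Nd3* at 22.1 ± 3.55. As a result *mt-Co1* took 40.2% and *mt-Cytb* 21.2% of all counts on the 13 genes, and *mt-Co2*, *mt-Co3* and *mt-Atp6* took 0.520%, 0.260% and 0.356%.

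These low values stood beside the shared sequence shown above. Of the 100-base stretches of *mt-Co3*, 99.9% also occur in transcripts of another gene, and the share was 99.5% for *mt-Co2* and *mt-Atp6*, 98.5% for *mt-Nd4l* and 97.6% for *mt-Nd3*. For *mt-Nd4* it was 60.8%, for *mt-Co1* 30.8%, for *mt-Nd2* 3.2% and for the remaining 5 members 0%. Of those 5 members *mt-Atp8* is the low one, and its model, MT:7766-7969, overlaps that of *mt-Atp6*, MT:7927-8607, so that reads on both are ambiguous. The pseudogene copies themselves carried counts: *Gm28437* stood at 91.9 to 152 CPM against 51.6 to 82.9 CPM for *mt-Co3*, and *Gm28661* at 127 to 191 CPM against 112 to 152 CPM for *mt-Co2*. The copy was above the mitochondrial gene in 18 of 18 libraries for *mt-Co2*, *mt-Co3* and *mt-Atp6*, but in 3 of 18 for *mt-Nd3* and in 0 of 18 for *mt-Nd4l* and *mt-Nd4*, whose copies are also identical where they align. *Gm29216* held 177 to 265 CPM against 9179 to 12204 CPM for *mt-Co1*. Reads lying wholly within identical stretches align to more than 1 place. Whether the reads counted on these copies reached past such stretches was not tested, and how they were assigned is not given in the sources used here. The part of read assignment in the order of these genes was not tested.

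**Figure D3:**
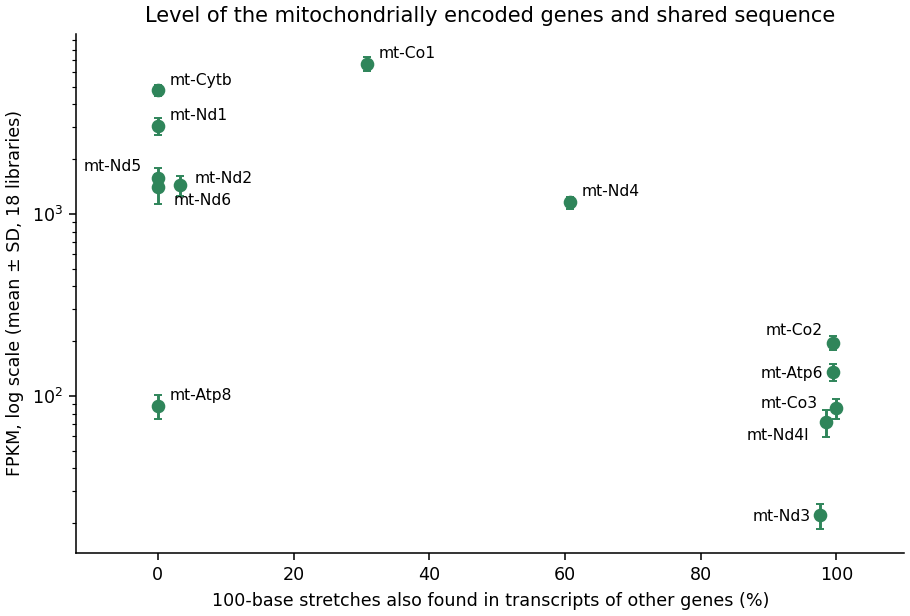
Level of the 13 mitochondrially encoded members (FPKM, log axis, mean ± SD over 18 libraries) against the percentage of their 100-base stretches that also occur in transcripts of other genes. The 5 genes at 97.6% or more lie between 22.1 and 196 FPKM, and *mt-Atp8* at 0% lies at 88.0 FPKM.

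The next question was whether *Ppara* overexpression changed the members, first in heterozygous mice. No member passed an adjusted p under 0.05 in edgeR's quasi-likelihood test, where 37 of 12645 genes (0.293%) did, all higher. At that share a count of 0 says little about 112 members. At an unadjusted p under 0.05, where the background was 5.22%, edgeR counted 0 of 112 members, limma-voom 0, and DESeq2 1, and 0 members reached the study's unadjusted threshold of 0.001 with any of these tools (0.546% of all genes in edgeR). The median log2 fold change of the tested nuclear members was 0.03, between -0.25 and 0.22, and that of all genes tested was 0.00. For nuclear members the 95% interval of the log2 fold change lay within -0.5 and 0.5 for 97 of 99, and over all tested genes this held for 78.6%. Nuclear estimates were above 0 for 73 of 99, against 49.0% of all genes. This count fell to 46 of 99 when library sizes were used without TMM and to 44 when the 4 libraries richest in B cell RNA were left out, and without single libraries it ranged from 41, without heterozygous 5, to 88. Since nuclear members swing together between libraries, the 99 signs are not independent. On simulated counts the same fit found 56 of 100 genes changed by 0.5 on the log2 scale in this comparison, so single changes of that size can be missed. The changed genes were drawn from all tested genes, and the rate for the members alone was not measured.

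Within that comparison the members of lowest p were read by name. The gene *mt-Nd6* (MT:13552-14070), a complex I subunit and the member on the strand opposite to the other mitochondrially encoded ones, was at 521, 656 and 764 CPM at the lowest, median and highest control and at 596, 767 and 971 CPM in heterozygous libraries. Its groups overlapped, with a log2 fold change of 0.29 ± 0.15 (SE) and an adjusted p of 1.00. The library protocol names no step that marks strand, so RNA from the other strand of this gene cannot be told apart. *Cox7a1*, the muscle and heart form of subunit VIIa (chr7:30184144-30186078), was at 15.9, 17.8 and 22.5 CPM in controls and at 16.6, 21 and 23.6 CPM in heterozygous libraries, with 0.21 ± 0.12 on the log2 scale. *Ndufa1*, an accessory subunit of complex I, was at 0.13 ± 0.09 and *Cox19*, a factor in copper delivery to complex IV, at 0.12 ± 0.08. On the lower side stood *Ndufaf4*, a complex I assembly factor, at -0.11 ± 0.12, *Ndufa4l2* at -0.25 ± 0.27 and *Cox15*, which makes the heme A of complex IV, at -0.06 ± 0.07. All 6 of these nuclear estimates had an adjusted p of 1.00.

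In homozygous mice no member passed the adjusted threshold either, where 51 genes (0.403%) did, 46 of them higher (0.364%). A count of 0 says little at this share as well. None reached the unadjusted threshold of 0.001, which 0.720% of all genes did in edgeR, and DESeq2 and limma-voom counted 0 as well. At an unadjusted p under 0.05, which 8.02% of all genes met, edgeR counted 2 of 112 members, *Cox6b2* and *mt-Co3*, and DESeq2 and limma-voom counted 2 each. The median log2 fold change was -0.01 for nuclear and 0.07 for mitochondrially encoded members, and 96 of 99 nuclear intervals lay within -0.5 and 0.5 (75.5% of all genes). Nuclear estimates were above 0 for 44 of 99, against 48.2% of all genes. The count was 76 without control 1, 66 without homozygous 4, 26 without homozygous 2, 23 without homozygous 1 and 16 without the 4 libraries richest in B cell RNA. In none of the 3 comparisons were the CPM ranges of the groups apart for any member, which occurred for 0.467% of genes in heterozygous against control, 0.854% in homozygous against control and 0.269% in homozygous against heterozygous.

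*Cox6b2*, the form of subunit VIb known from testis (chr7:4751792-4753094), had the largest estimate. It stood at 5.02, 6.82 and 8.42 CPM at the lowest, median and highest control, 5.32, 7.73 and 9.30 CPM in heterozygous and 6.74, 8.82 and 12.8 CPM in homozygous libraries. Homozygous 1, 3 and 4 were above every library of the other groups, and the remaining 3 overlapped the controls. The log2 fold change was 0.47 ± 0.17 (SE; 95% interval 0.12 to 0.83), with an adjusted p of 0.438 over all genes. It was 0.37 without the 4 libraries richest in B cell RNA, of which homozygous 1 is a member, 0.42 with the smooth muscle score as a covariate and 0.46 without the 2 libraries of lowest smooth muscle score. All 10 smooth muscle markers were expressed, and they summed to 682 to 6140 CPM in controls and 4157 to 9690 CPM in homozygous libraries. Over 18 libraries *Cox6b2* and the smooth muscle score had Pearson's r = 0.430 (permutation p = 0.0753, adjusted over 12 relations 0.301) and Spearman's rho = 0.538 (permutation p = 0.0228, adjusted 0.137). Without the libraries farthest from the median score r was 0.427, and within controls, heterozygous and homozygous libraries it was 0.556, 0.176 and 0.183. Its common partner *Cox6b1* stood at 158 to 182 CPM in controls and 156 to 205 CPM in homozygous libraries.

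Among the mitochondrially encoded members *mt-Co3*, a core subunit of complex IV (MT:8607-9390), was at 51.6, 61.7 and 78.8 CPM in controls and 64.6, 72.2 and 82.9 CPM in homozygous libraries. The log2 fold change was 0.22 ± 0.09 with an adjusted p of 0.574, and this is the member with the largest share of shared sequence. Estimates were above 0 for 12 of 13 of these genes in homozygous and 11 of 13 in heterozygous against control mice, against 48.2% and 49.0% of all genes. The medians were 0.07 and 0.09, and the SEs of single members ran from 0.07 to 0.15. The 13 genes come from a pair of long precursor transcripts, and both comparisons use the same controls, so these signs are not separate observations. The 6 members with at most 3.2% shared sequence had medians of 0.07 and 0.06, and their largest estimates were 0.23 and 0.29.

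The other nuclear members of lowest p in homozygous mice were small in size. *Cox16*, an assembly factor of complex IV at only 2.29 to 4.24 CPM in these 2 groups, had an estimate of 0.27 ± 0.14 and *Ndufb2* one of 0.16 ± 0.09. *Cox17*, the copper chaperone of complex IV, had an estimate of -0.20 ± 0.12, *Cox15* one of -0.11 ± 0.07, and *Ndufa9*, an accessory subunit of complex I, one of -0.10 ± 0.06. Their adjusted p-values lay between 0.653 and 0.713.

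Homozygous and heterozygous mice were also compared directly. No member and none of the 12645 genes (0.00%) passed an adjusted p under 0.05 in edgeR, although 965 genes (7.63%) had an unadjusted p under 0.05 and 21 (0.166%) one under 0.001. DESeq2 called 9 genes and limma-voom 1, none of them a member. Among the members only *Cox19* (chr5:139336189-139351418) had an unadjusted p under 0.05 in edgeR, and 1 member had one in DESeq2 and in limma-voom. It stood at 22.0, 24.0 and 28.4 CPM at the lowest, median and highest heterozygous library and 19.3, 21.4 and 25.1 CPM in homozygous libraries, which overlapped, and at 20.9 to 26.4 CPM in controls. The log2 fold change was -0.22 ± 0.08 with an adjusted p of 0.641. *Cox17* and *Cox7a1* were both at -0.23 ± 0.12, and *Ndufaf4*, *Ndufb2* and *Cox10*, which acts in heme A synthesis, were at 0.20 ± 0.12, 0.15 ± 0.09 and 0.11 ± 0.07. The median of the nuclear members was -0.04 and that of the mitochondrially encoded members 0.02. Nuclear estimates were above 0 for 29 of 99 (48.9% of all genes), a count that was 52 without heterozygous 5, 44 without homozygous 4, 19 without heterozygous 3, 18 without homozygous 2, 16 without homozygous 1 and 46 without TMM, and 97 of 99 intervals lay within -0.5 and 0.5 (75.4% of all genes).

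Split by complex, the estimates stayed close to 0. In heterozygous against control mice the median log2 fold change of nuclear subunits was 0.03 for complex I (37 genes), 0.00 for complex II (4), 0.06 for complex III (8), 0.06 for complex IV (16) and 0.03 for complex V (17). In homozygous against control mice the medians were 0.00, -0.07, 0.02, -0.01 and -0.01 in the same order. All 4 subunits of complex II, which is also the succinate dehydrogenase of the citric acid cycle, were below 0 there, between -0.12 and -0.03, and none had an adjusted p under 0.726. All 37 intervals of complex I, all 8 of complex III and all 17 of complex V lay within -0.5 and 0.5 in these comparisons, as did all 4 of complex II, against 78.6% and 75.5% of all genes. For complex IV this held for 14 of 16 in each comparison, with bounds as far as -0.83 in heterozygous and 0.83 in homozygous mice. The assembly factors had medians of -0.03 in heterozygous and 0.05 in homozygous mice over 17 genes, with 0 called.

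The genes around the chain were read from lists. Fatty acid β-oxidation in mitochondria, whose products feed the chain, is described by its own values. Of its 16 tested genes 2 passed the adjusted threshold in each comparison with control, both higher. The share called higher over all genes was 0.293% in heterozygous and 0.364% in homozygous mice. *Slc25a20*, the carnitine-acylcarnitine carrier, spanned 68.2 to 95.4 CPM among controls, 106 to 140 among heterozygotes and 127 to 161 among homozygotes, so both IEC-*Ppara* groups were wholly above the controls. Its log2 fold changes were 0.63 ± 0.09 (adjusted p 0.000811) and 0.78 ± 0.09 (adjusted p 4.07e-05). *Acadvl*, the very long chain acyl-CoA dehydrogenase, rose by 0.53 ± 0.08 (adjusted p 0.00142) and 0.58 ± 0.08 (adjusted p 0.000461), and the first of these calls was lost, at an adjusted p of 0.0714 and a log2 fold change of 0.49, without the 4 libraries richest in B cell RNA. Over all alternatives this estimate lay between 0.49 and 0.60. At an unadjusted p under 0.05, 14 of 16 genes were higher in heterozygous and 13 in homozygous mice, where the background for higher genes was 2.85% and 4.11%, and the medians were 0.32 and 0.28. The interval of 94 of 99 nuclear and 11 of 13 mitochondrially encoded members lay wholly below that median of 0.32 in heterozygous mice, as it did for 71.7% of all genes. In homozygous mice 87 of 99 and 6 of 13 lay below 0.28, against 65.0% of all genes, so for 7 mitochondrially encoded members a rise of that size is within the interval. The list and the members were both chosen with earlier results of these data known, and no test of the difference between them was run.

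**Figure D4:**
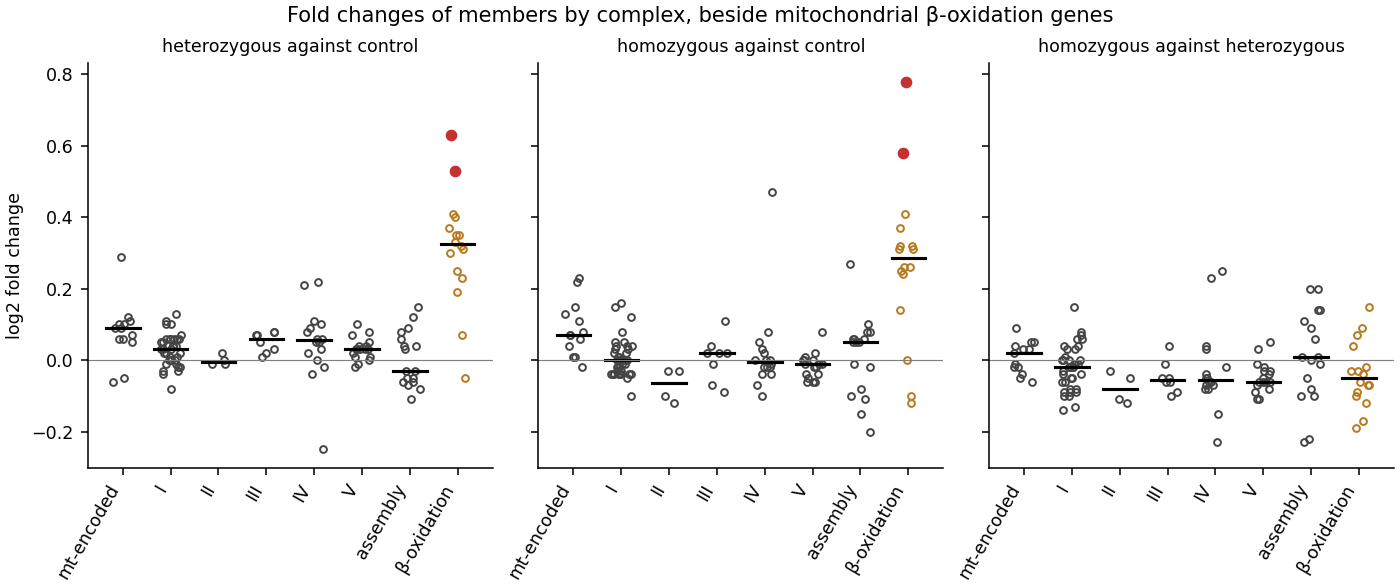
Log2 fold change (vertical axis) of each tested member, grouped as mitochondrially encoded, nuclear subunits of complexes I to V and assembly factors, beside 16 genes of mitochondrial β-oxidation, for each of the 3 comparisons. Lines are group medians, and filled points (adjusted p under 0.05 over all genes) occur only in the β-oxidation column, for *Slc25a20* and *Acadvl*.

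Between β-oxidation and the chain lie the electron transfer flavoproteins and their oxidoreductase. *Etfdh*, which passes electrons from acyl-CoA dehydrogenases to coenzyme Q (chr3:79603788-79629500), was at 79.1, 80.3 and 109 CPM at the lowest, median and highest control, 99.4, 111 and 131 CPM in heterozygous and 98.8, 111 and 122 CPM in homozygous libraries. It rose in heterozygous mice by 0.43 ± 0.09 on the log2 scale with an adjusted p of 0.0488, and the call was lost in 23 of 33 alternative fits, with adjusted p-values over the 33 fits between 0.000954 and 0.517, while the log2 fold change stayed between 0.39 and 0.52. In homozygous mice the value was 0.37 ± 0.09 with an adjusted p of 0.121. *Etfb*, the β chain of the flavoprotein that hands electrons to *Etfdh*, was at 0.27 and 0.29 with adjusted p-values of 0.935 and 0.574. Of the 10 tested genes of this list, 1 was called in heterozygous and 0 in homozygous mice, against 0.293% and 0.403% of all genes. *Cycs*, cytochrome c, was at 0.04 and 0.06. The lowest was *Prodh*, proline dehydrogenase, at -0.20 ± 0.15 and -0.32 ± 0.15 (adjusted p 1.00 and 0.620), chosen after its values were seen.

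The other lists held no called gene in any comparison, and at the shares called over all genes (0.293%, 0.403% and 0%) a count of 0 says little about lists of this size. These were coenzyme Q synthesis (13 tested genes), assembly factors under other names (27), upkeep and transcription of the mitochondrial genome (16), regulators of nuclear respiratory genes (10), carriers of ATP, ADP and phosphate with uncoupling proteins (8), the citric acid cycle (13) and the small subunit of the mitochondrial ribosome (29). Their medians lay between -0.02 and 0.07 in heterozygous and between -0.07 and 0.05 in homozygous against control mice. Among the regulators *Ppargc1a*, a coactivator of mitochondrial biogenesis, was at 0.14 and -0.10, *Nrf1* at 0.02 and -0.07 and *Esrra* at 0.07 and -0.01. The farthest from 0, chosen after its values were seen, was *Esrrg*, an estrogen-related receptor, at -0.47 ± 0.19 and -0.31 ± 0.19 (adjusted p 0.851 and 0.706). Estimates were below 0 for 9 of the 10 regulators in homozygous mice, where 48.2% of all genes were above 0. In heterozygous mice 4 of the 10 were above 0, against 49.0% of all genes. *Gabpb1*, a partner of GABPA, was the only regulator at an unadjusted p under 0.05 in homozygous mice, at -0.17 ± 0.07 (adjusted p 0.587). *Slc25a4*, the ADP/ATP carrier of muscle, was at 0.09 and 0.46 (adjusted p 1.00 and 0.406), and *Slc25a5*, its form in most tissues, at 0.05 and 0.00. *Ucp2*, an uncoupling protein named here after its values were seen, was at 574, 624 and 673 CPM at the lowest, median and highest control, 531, 667 and 785 in heterozygous and 674, 738 and 809 in homozygous libraries. Its homozygous libraries lay just above all controls, with a log2 fold change of 0.24 ± 0.09 and an adjusted p of 0.490.

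The tissue-restricted forms of complex IV subunits were read beside their common partners in CPM. Of 8 such forms, *Cox6b2*, *Cox7a1* and *Ndufa4l2* passed the filter on low counts, and *Cox4i2*, *Cox6a2*, *Cox8b*, *Cox7b2* and *Cox8c* did not. *Cox4i1* stood at 301 to 390 CPM and *Cox4i2*, a form known from lung, at 0.446 to 2.09 CPM. *Cox6a1* was at 232 to 318 CPM, and *Cox6a2*, of heart and skeletal muscle, at 0 to 0.470 CPM. *Cox8a* was at 235 to 306 CPM and *Cox8b*, also of muscle, at 0 to 1.16 CPM. *Cox7a2* was at 72.2 to 103 CPM, and its muscle form *Cox7a1* was the most abundant of the restricted forms, at 14.6 to 23.6 CPM. *Ndufa4* was at 85.9 to 120 CPM and *Ndufa4l2* at 0.988 to 4.23 CPM. *Cox7b2* and *Cox8c* had 0 counts in all 18 libraries, which allows up to 0.00375 CPM over the series (3 counts of 799054391; counting error only). Every common partner was above its restricted form in all libraries.

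**Figure D5:**
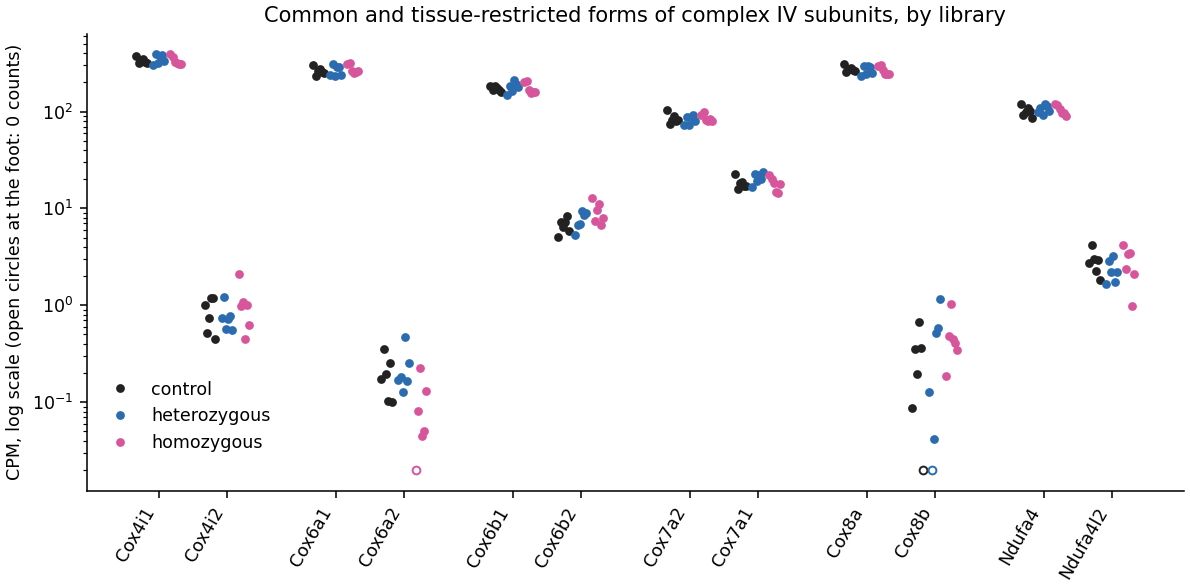
CPM (log axis) of 6 complex IV subunits and their tissue-restricted forms in each library, coloured by genotype, with open circles at the foot for libraries with 0 counts. Genotypes overlap for every gene, and *Cox7a1*, at 14.6 to 23.6 CPM, is the highest restricted form.

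Several of these forms are known from muscle, *Cox6a2* from heart and skeletal muscle, while the muscle layer in the samples is smooth muscle. All 12 genes were set against the smooth muscle score, the mean log2 CPM of 10 smooth muscle markers. The 10 listed markers of skeletal and cardiac muscle had median sums of 117, 58.0 and 63.5 CPM in control, heterozygous and homozygous libraries. These markers were not set against the 12 genes. Over 18 libraries *Cox8b* had the closest relation, with Pearson's r = 0.727 (permutation p = 0.00092, adjusted over 12 relations 0.011) and Spearman's rho = 0.559 (permutation p = 0.0173, adjusted 0.137). Without control 6 and heterozygous 3, the libraries farthest from the median score, r was 0.535, and within controls, heterozygous and homozygous libraries it was 0.908, 0.523 and 0.712. Its counts were low, at or under 1.16 CPM, and the rank relation missed the adjusted threshold. *Cox7a1* had r = -0.093 (permutation p = 0.718, adjusted 0.844) and rho = -0.311 (permutation p = 0.211, adjusted 0.507), with -0.366 without those libraries. *Cox6a2*, at or under 0.470 CPM, had r = 0.049 over all libraries (permutation p = 0.844, adjusted 0.844) and rho = 0.030 (permutation p = 0.910, adjusted 0.969), but 0.530, 0.639 and 0.506 within controls, heterozygous and homozygous libraries, which were not tested. The 8 genes other than these and *Cox6b2* had adjusted p-values of 0.301 or more for r and 0.384 or more for rho.

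The 10 nuclear members that did not pass the filter were *Cox4i2*, *Cox6a2*, *Cox8b*, *Cox7b2*, *Cox8c*, the assembly factors *Cox20*, *Sdhaf1*, *Sdhaf3* and *Sdhaf4*, and a second gene ID of *Atp5o* with 0 counts. *Sdhaf1*, *Sdhaf3* and *Sdhaf4* stood between 1.15 and 3.42 CPM and *Cox20* between 0.464 and 1.31 CPM over all libraries. Shared sequence also touches nuclear members: 8 of the 99 tested share over 20% of their 100-base stretches with transcripts of other genes, among them *Ndufaf2* with 62.4%, *Cox16* with 51.7%, *Cox11* with 37.2% and *Atp5g2* with 34.7%, while 59 share none. *Cox5b-ps*, named as a pseudogene but listed as protein-coding, was at 49.5 ± 6.67 FPKM with 21.3% shared, and its counts cannot be told apart fully from those of similar genes.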

How the data were processed

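Whole-thickness ileum of 18 mice was analysed, grouped by the genotype in the sample labels. The authors selected poly-A RNA, sequenced paired reads, aligned them with STAR to GRCm38 and counted, by their methods, uniquely aligned, unambiguous reads per gene with featureCounts. The deposited counts carry no normalization. The deposited CPM equal counts over the library total in all 18 columns (largest difference 4.73e-11), and the FPKM deposited by the authors divide also by the summed exon length. Deposited log2 values were not used.

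Members and gene lists were chosen with earlier results of these data known. The 12645 protein-coding genes above 3 CPM in 4 or more libraries entered a single edgeR 4.0.16 fit of all genotypes (glmQLFTest, TMM, genotype as the sole term; R 4.3.3), with Benjamini-Hochberg adjustment over all of them at 0.05. Intervals are 95% intervals from the same fit. DESeq2 1.42.0 and limma-voom (limma 3.58.1) were alternatives, with other scalings, filters, covariates and libraries left out. Correlations had two-sided permutation tests with 100000 permutations and log2(CPM + 0.05); scores used a prior count of 2. Named members were, by rule, those called, in each comparison the 3 nuclear members of lowest p on each side, all mitochondrially encoded members, tissue-restricted forms, the highest and lowest subunit per complex, and called genes of the other lists. Other genes were named after their values were seen. On simulated counts for 12645 genes the fit found 56, 55 and 47 of 100 genes changed by 0.5 on the log2 scale, and 90, 87 and 88 of 100 changed by 1, in heterozygous against control, homozygous against control and homozygous against heterozygous libraries. Motif cores of 9 letters for NRF1 and YY1 replaced longer forms after the first counts were seen, and the DR1 element bound by PPARα was also searched in the promoters but is not reported here. Shared sequence was found by matching 100-base stretches of GENCODE M21 transcripts, which are on the build of the files but may differ from the annotation used for counting. Scripts used Python 3.11.15 and pandas 2.3.3. That mice are separate animals makes the libraries biological replicates; litters are not given.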

Additional observations from a re-analysis of the deposited data

Results flagged for a closer look

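In 8 of 99 groups of 6 libraries, over 31 genes and both shares, 1 library lay far from the other 5, with a gap to its nearest neighbour that passed Dixon's 95% critical value. Chance alone flags about 1 group in 20. Among controls, control 1 had the highest *Etfdh* at 109 CPM, with the next at 87.9. Among heterozygous libraries, heterozygous 1 was lowest for *mt-Co2* at 117 CPM (next 134) and for *Acadvl* at 78.8 CPM (next 93.7), heterozygous 2 was highest for *Cox4i2* at 1.21 CPM (next 0.771), and heterozygous 4 was highest for *Cox6a2* at 0.470 CPM (next 0.252). Among homozygous libraries, homozygous 3 was lowest for *Cox15* at 45.0 CPM (next 48.7) and highest for *Cox8b* at 1.02 CPM (next 0.486), and homozygous 5 was highest for *Cox17* at 7.09 CPM (next 5.69). Heterozygous 1 is also the library with the lowest nuclear members, and homozygous 3 has the highest smooth muscle score, 8.80.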

How the results depend on the processing

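No member was called at an adjusted p under 0.05 in any of the 33 alternative fits. At the shares called over all genes in the main fit (0.293%, 0.403% and 0%) a count of 0 says little about 112 members. The lowest adjusted p of a nuclear member over these fits was 0.684 in heterozygous against control, 0.265 in homozygous against control and 0.329 in homozygous against heterozygous mice; for mitochondrially encoded members it was 0.462, 0.141 and 0.632. The median log2 fold change of nuclear members ranged from -0.01 to 0.07, from -0.07 to 0.02 and from -0.07 to 0.00 in these comparisons, and that of mitochondrially encoded members from 0.03 to 0.13, from 0.04 to 0.12 and from -0.04 to 0.05. With the replicate number as a block no member was called, and *Cox6b2* in homozygous against control mice was at 0.48 (adjusted p 0.645). Correlations of the deviations of same-numbered libraries ran from -0.606 to 0.644 and were above 0.1 in 9 of 18 pairs. Litters are not given, so these correlations cannot decide whether the numbers pair the mice. The estimate of *Cox7a1* in homozygous against control mice, -0.02, changed sign without control replicate 1, homozygous replicate 4 or homozygous replicate 5, with a range of -0.09 to 0.05 on leaving out single libraries. Group mean shares moved by less than 1 SD with another total or without any 1 library. The settings that leave out the B cell rich libraries and those of lowest smooth muscle score were chosen after seeing the data. Over all genes, edgeR called 37, 51 and 0 in the 3 comparisons. DESeq2's Wald test called 82, 136 and 9, and leaving out single libraries gave 26 to 49, 42 to 65 and 0 to 2. In heterozygous against control mice the count was 22 with the block, 23 with only the 12 libraries compared, 24 without the libraries of lowest smooth muscle score and 15 without the B cell rich ones, which also lowered the count in homozygous mice to 31; the cause was not tested. Read assignment between mitochondrial genes and their chromosome 1 copies, overlapping gene models, strand and gene model length limit the levels.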
